A study of Mus musculus with 9 samples.

Results

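The 38 genes described here serve protein folding in the endoplasmic reticulum and the unfolded protein response of the mouse pancreas. They were listed by symbol, out of 15967 gene symbols on the array, in 5 roles: 10 chaperones, 8 enzymes and partners of disulfide bonding, 3 parts of the translocation channel, 8 genes of degradation from the endoplasmic reticulum, and 9 sensors and stress-response factors. Each gene was read from its probe with the highest mean over the 9 arrays. The study compared endogenous islet cells with induced beta cells on Illumina bead arrays, in 3 groups of 3 arrays, each group made of independent repeats per the labels. The induced cells were GFP+ cells, about 5000 per sample, taken by flow sorting out of adult rag-/- pancreas, 1 month after the M3 adenovirus was given, and 22% of the sorted cells were insulin-positive. The islets, 4 to 5 per sample, were picked by hand from adult pdx-gfp transgenic mice. The non-islet samples were about 10000 cells each of the pancreatic tissue left after islets had been taken out, from animals that the labels write as pdxa-gfp. The mouse line thus differed between the induced cells and both other groups, and line and group cannot be told apart in either comparison that involves them. Which slide held which array is not given in the labels, so slide and group cannot be told apart either. Nothing in the labels says that the repeats came from separate animals, so p-values reflect how far these samples vary, and that variation may be technical.

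Secreted proteins enter the endoplasmic reticulum through the Sec61 channel, fold there with chaperones and disulfide enzymes, and are drawn back out for destruction when they fail to fold. When unfolded proteins build up, the sensors Ern1 (IRE1), Atf6 and Eif2ak3 (PERK) act through Xbp1, Atf6 itself and Atf4. These raise the genes of folding and degradation. PERK also slows translation. Beta cells, which make insulin, and acinar cells, which make digestive enzymes, both carry a heavy load of secreted protein, and Xbp1 is known to be needed for normal acinar secretion.

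Of the 38 genes, 33 had a probe that the platform annotation names and 30 had a probe that exceeded background on every array of 1 group or more, which was the condition for a test. Calr, a calcium-binding chaperone, and Dnajc10, a disulfide reductase, were above background on no array, and Derl1, a part of the retrotranslocation channel, on none of the induced, 2 of the islet and 1 of the non-islet arrays. Dnajb9, Dnajb11, Pdia2, Ssr1 and Eif2ak3 were not analysed here. Markers of several cell types were read in each sample. Probes of 14 acinar genes were above background on all arrays of every group, and their summed deposited intensity was 62456 to 64810 in the induced cells, 78617 to 92737 in the islets and 271296 to 297481 in the non-islet cells. Quantile normalization brought these sums close together, to 122432 to 126408 in the induced cells, 137219 to 138939 in the islets and 148192 to 150682 in the non-islet cells. The summed quantile-normalized signal of 8 beta cell genes, Ins2 and Slc30a8 included, was 10256 to 14186 in the induced cells, 25640 to 26980 in the islets and 136 to 194 in the non-islet cells, where 4 of the 8 were above background on no array. Induced cells had 7 of the 8 lower than islets, with Ucn3 at 1.33 against 806, and 1 higher, Pdx1, at 2003 against 249.6. Endothelial markers summed to 30.8 to 36.2 in the induced cells, 2107 to 2159 in the islets and 303 to 353 in the non-islet cells. Duct markers summed to 1960 to 2168 in the induced cells, 1002 to 1128 in the islets and 1260 to 1324 in the non-islet cells, and 5 of 5 were higher in induced cells against islets. Against non-islet cells 2 were higher and 2 lower, Sox9 (-0.73) and Muc1 (-0.95). Krt7 alone averaged 1364 in induced cells, 1003 in islets and 20.0 in non-islet cells. It thus made up most of the duct sum in induced cells and islets, but little of it in non-islet cells. Stromal markers summed to 80.0 to 94.1 in induced cells, 524 to 594 in islets and 380 to 435 in non-islet cells. Macrophage markers summed to 80.8 to 97.9 in induced cells, 240 to 270 in islets and 78.1 to 110 in non-islet cells. Of each of these lists, 4 of 5 tested genes were lower in induced cells against islets. The part of these cell types in the results was not tested. The non-islet arrays also stood apart in shape. The 50 brightest probes carried 13.1% to 13.4% of the signal on induced arrays, 14.4% to 16.6% on islet arrays and 42.6% to 46.3% on non-islet arrays. Probes above background numbered 13476 to 13689 on induced, 13525 to 13763 on islet and 9210 to 9933 on non-islet arrays. In such mixed samples, fewer cells of a type and less RNA per cell cannot be told apart.

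Some gene starts of the set carry a known mark of this pathway, and the sequences are shown because the mark groups genes of different roles. The ER stress element, which Atf6 and Xbp1 bind, is the letters CCAAT and CCACG spaced by 9 bases. RefSeq promoter windows (GRCm38.p6, 250 bases before to 50 after each gene start) were at hand for 33 of the 38 genes and were searched on both strands. The element was found in 10 of the 33 (30.3%), against 37 of 27025 genes overall (0.137%). The genes were listed as members of this pathway, so the higher share is not independent of that choice. Capitals mark both parts of the element, and a match on the other strand appears as CGTGG and ATTGG. The strand given is that of the gene.
Hspa5 (chr2:34772010-34772058, plus strand): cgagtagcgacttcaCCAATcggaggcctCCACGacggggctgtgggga
Hsp90b1 (chr10:86705518-86705671, minus strand): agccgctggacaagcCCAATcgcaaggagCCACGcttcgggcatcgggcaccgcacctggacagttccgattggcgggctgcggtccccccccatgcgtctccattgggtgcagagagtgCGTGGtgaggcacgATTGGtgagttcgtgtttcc
Pdia6 (chr12:17266476-17266524, plus strand): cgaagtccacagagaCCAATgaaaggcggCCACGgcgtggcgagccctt
Creld2 (chr15:88819505-88819553, plus strand): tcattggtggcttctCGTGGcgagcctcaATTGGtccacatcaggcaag
Ero1b (chr13:12565667-12565715, plus strand): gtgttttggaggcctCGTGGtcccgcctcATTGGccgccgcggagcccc
Syvn1 (chr19:6046517-6046565, plus strand): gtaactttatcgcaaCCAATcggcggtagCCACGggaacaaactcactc
Derl3 (chr10:75893227-75893275, plus strand): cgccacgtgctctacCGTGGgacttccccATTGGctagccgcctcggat

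Hsp90b1 held 2 matches, and Calr, Canx and Dnajc3 were the other carriers. The amino acid response element, the letters TGATGNAA bound by Atf4 with its partners, was found in Herpud1, Chac1 and Trib3, 3 of the 33 (9.09%), against 4.51% of all genes. It is printed for the pair in which it lies before the gene start, on the other strand and thus read as TTGCATCA.
Chac1 (chr2:119351034-119351071, plus strand): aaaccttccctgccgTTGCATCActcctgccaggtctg
Herpud1 (chr8:94386302-94386339, plus strand): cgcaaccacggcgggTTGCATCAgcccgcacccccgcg
The letters TGACGTGG, a further site of the response, were in none of the 33 windows and in 0.714% of all genes. A match is a run of letters, and binding was not measured here.

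Against islets, the induced cells had lower levels of most folding, channel and degradation genes. Of stress factors downstream of Atf4, Ddit3 and Ppp1r15a were higher, while Chac1 and Trib3 were lower. Of the 30 tested genes, 6 were higher and 18 lower (20% and 60%), where 22.5% of all 13927 tested probes were called higher and 26.2% lower. A gene was called when limma's adjusted p, over all tested probes, was under 0.05. The median log2 difference of the 30 was -0.58, against -0.04 over all tested probes. Arrays did not overlap for 6 genes that were above and 18 that were below, where this held for 30.5% and 36.2% of probes. The values as deposited, without quantile normalization, gave 6 higher and 18 lower with the same call for all 30, where 22.5% of probes were called higher and 33.9% lower. Levels are given throughout as quantile-normalized signal, and differences on the scale of log2(signal + 12), which understates the change of dim genes.

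**Figure D1:**
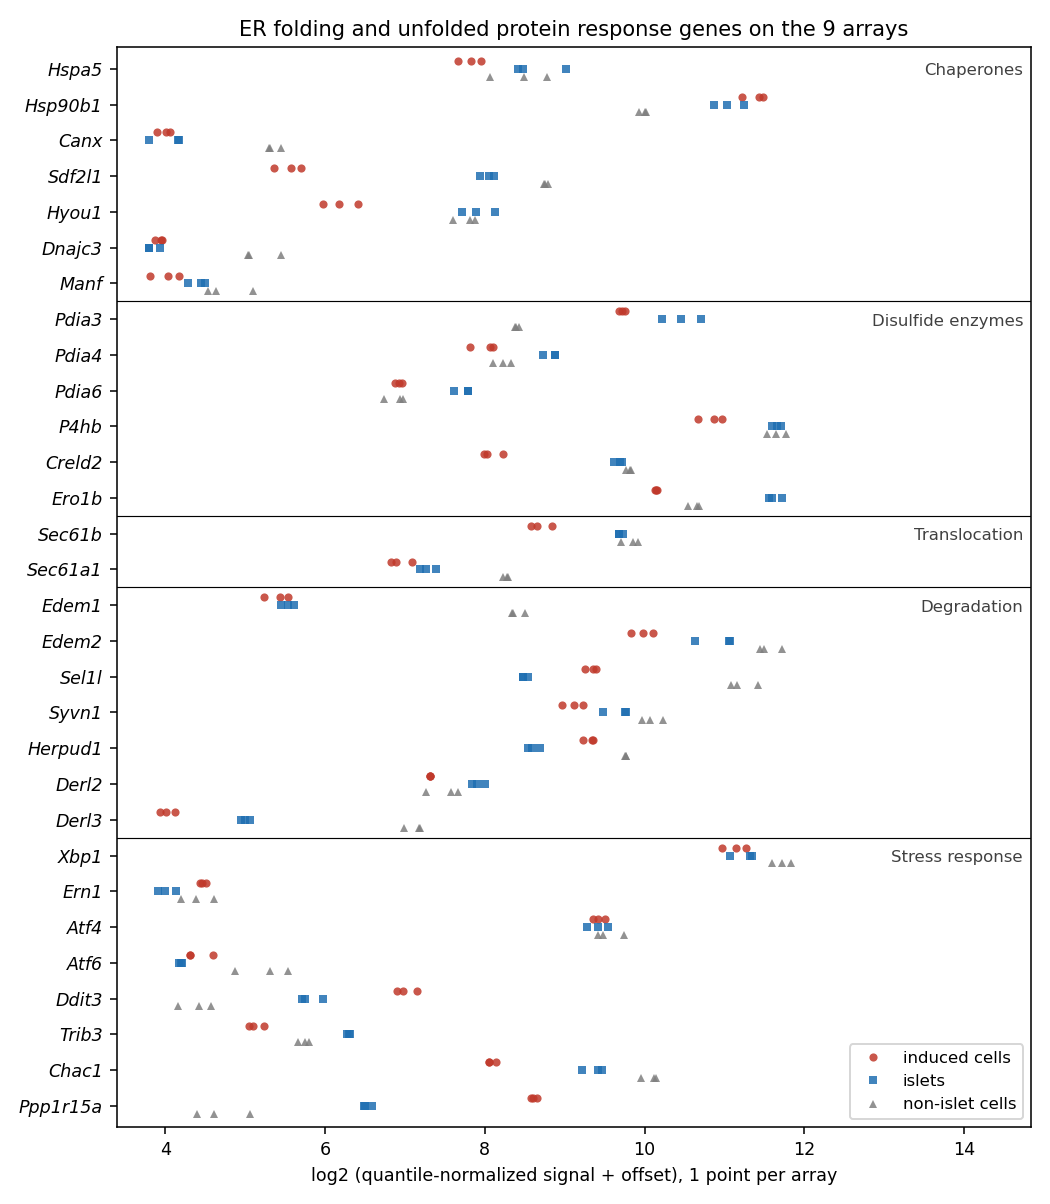
Level of each of the 30 tested genes on each array, as log2 of the quantile-normalized signal plus an offset of 12, with 1 point per array for induced cells (circles), islets (squares) and non-islet cells (triangles), grouped by role. The induced arrays lie below the islet arrays for all 6 disulfide genes, and above them for Ddit3 and Ppp1r15a.

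Against non-islet cells, the induced cells had 4 genes higher and 21 lower of 30, where 39.6% of probes were called higher and 36.5% lower. The median log2 difference was -0.79, against 0.05 over all tested probes. Arrays did not overlap for 4 genes above and 22 below, where this held for 39.8% and 36.5% of probes. This split depended on the scaling: with the deposited values 9 genes were called higher and 18 lower, where 56.9% of probes were higher and 22.5% lower, and 23 of the 30 kept their call. In the comparison of islets with non-islet cells 9 genes were higher and 14 lower, where 40.5% of probes were called higher and 34.1% lower, and with the deposited values 14 were higher and 11 lower, where 62.5% and 18.5% of probes were. Arrays did not overlap there for 9 genes above and 16 below, where this held for 40.3% and 34.3% of probes. The median log2 difference was -0.24, against 0.09 over all tested probes, and 0.06 with the deposited values, against 0.34. Many differences from non-islet cells were nearer 0 with the deposited values, whose larger offset of 33.3 also compresses dim genes. For induced cells this took Sdf2l1 to -2.04 instead of -3.21, Creld2 to -1.02 instead of -1.72, Hyou1 to -0.48 instead of -1.58 and Edem1 to -1.78 instead of -3.00, all still called. Likewise the deposited values gave -0.46 for Canx, -0.43 for Dnajc3, -0.26 for Manf, -0.19 for Ero1b, -0.48 for Sec61b, -0.42 for Syvn1, -1.32 for Chac1 and -0.22 for Atf6, with calls kept. Pdia3 moved away from 0, to 2.11 instead of 1.32. For islets against non-islet cells the deposited values added calls of higher levels for Hspa5 (0.97), Hyou1 (1.03), Creld2 (0.33), Sec61b (0.35) and Atf4 (0.42) and of a lower level for P4hb (-0.33), and the lower calls of Sdf2l1, Sec61a1, Syvn1 and Ern1 were lost. With arrays scaled to a common median, Creld2 (-0.70), Sec61b (-0.69) and Atf4 (-0.61) were instead called lower in islets than in non-islet cells. The comparisons that involve non-islet cells share those arrays, as both comparisons of induced cells share the induced arrays. Ordered by group mean, the induced cells were lowest for 19 of the 30 genes (63.3%), against 31.6% of tested probes, and with the deposited values for 14 (46.7%), against 25.8% of probes.

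**Figure D2:**
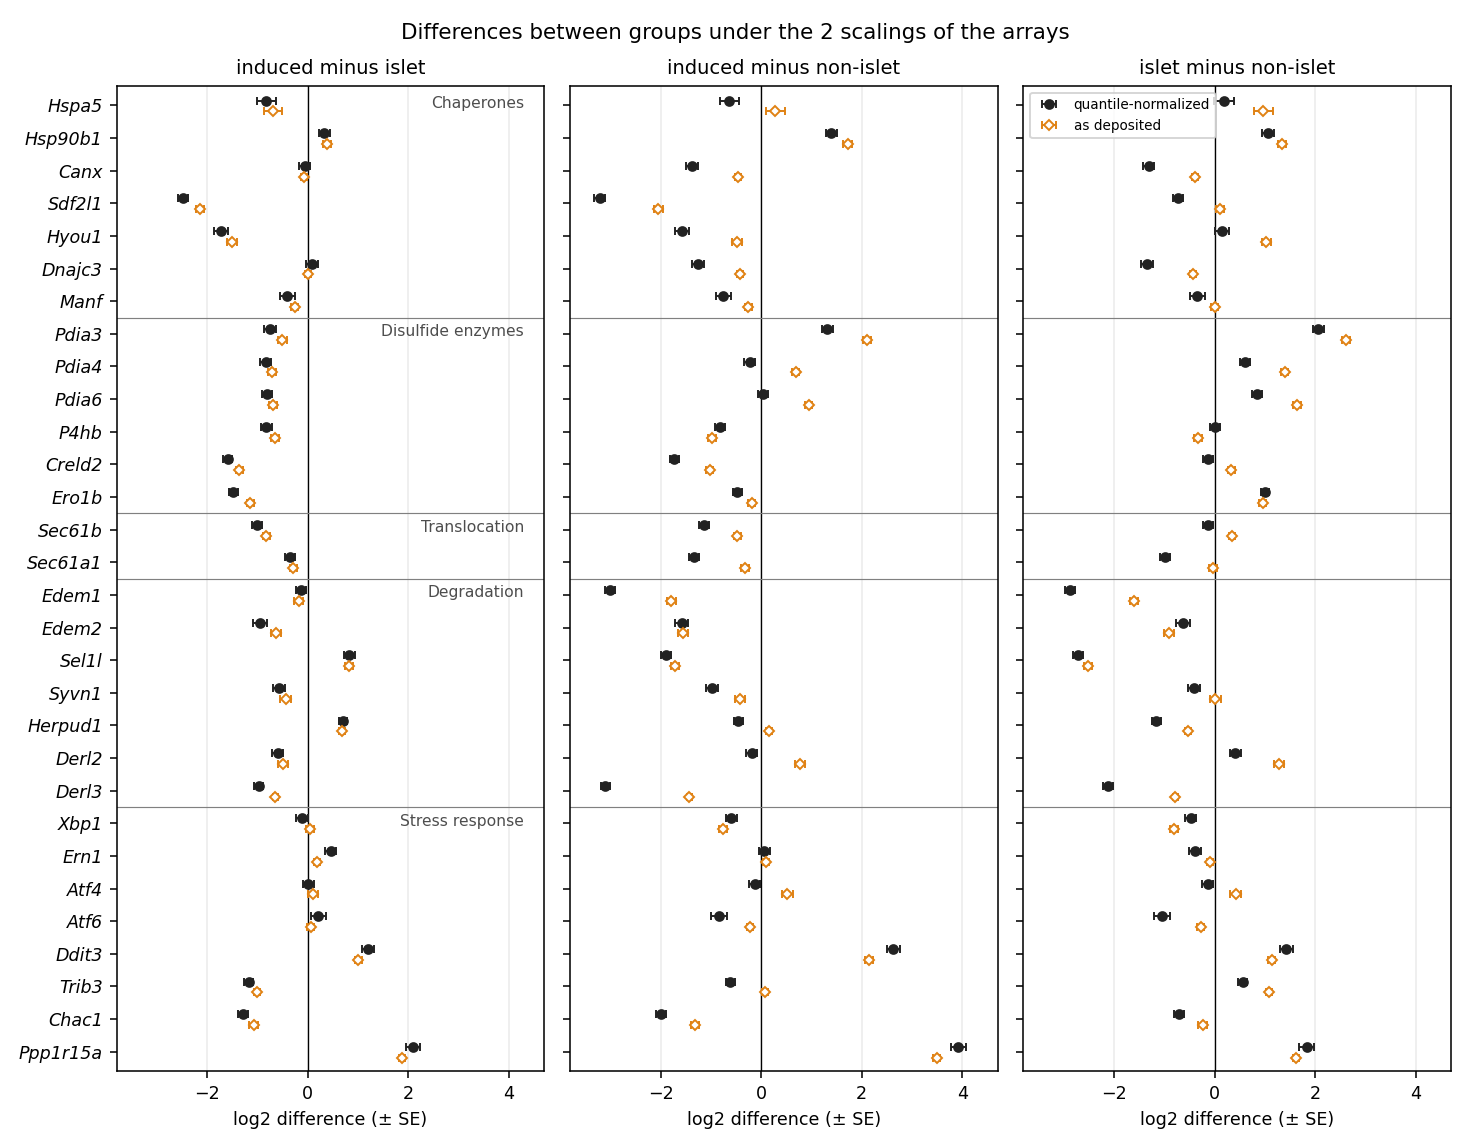
Log2 difference ± SE of each tested gene in each comparison, under quantile normalization (filled circles) and as deposited (open diamonds). Both scalings lie close together for induced cells against islets, while in the comparisons with non-islet cells the deposited values lie to the right of the quantile-normalized ones for most genes, as for Hspa5 at 0.28 against -0.63.

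Among the chaperones, the induced cells had less Hspa5, Sdf2l1, Hyou1 and Manf than islets and more Hsp90b1, and Canx and Dnajc3 were near background in both. Hspa5 (BiP), the main Hsp70 chaperone of the compartment, had signals of 214, 190.4 and 236 in induced cells, 329, 344 and 505 in islets and 256, 346 and 427 in non-islet cells. The induced arrays lay below all others. The log2 difference was -0.82 ± 0.19 (SE) from islets (limma adjusted p = 0.00444) and -0.63 ± 0.19 from non-islet cells (adjusted p = 0.0113), and the difference from non-islet cells was 0.28 with the deposited values and not called (adjusted p = 0.187). Islet and non-islet arrays overlapped for Hspa5 (adjusted p = 0.391), while the deposited values put it higher in islets (0.97, adjusted p = 0.000356).

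The largest deficit of a chaperone was in Sdf2l1, a partner of Hspa5 that is strongly raised by the unfolded protein response. It had signals of 39.9, 35.8 and 29.2 in induced cells, 232, 265 and 253 in islets and 419, 429 and 415 in non-islet cells. The 3 groups did not overlap. The means, 34.9 ± 5.39 in induced cells, 249.9 ± 16.3 in islets and 421 ± 7.15 in non-islet cells (SD, n = 3 each), gave log2 differences of -2.48 ± 0.10 from islets (limma adjusted p = 6.92e-09) and -3.21 ± 0.10 from non-islet cells (adjusted p = 3.01e-10). Islets were also lower than non-islet cells (-0.73, adjusted p = 5.66e-05), but the difference was 0.10 and not called with the deposited values (adjusted p = 0.253). Hyou1 (Grp170), the exchange factor that reloads Hspa5, averaged 61.3 ± 11.4 in induced cells, 231 ± 35.0 in islets and 206 ± 22.0 in non-islet cells. It fell by 1.73 against islets and by 1.58 against non-islet cells on the log2 scale (adjusted p = 1.64e-06 and 1.26e-06).

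Hsp90b1 (Grp94), the Hsp90 of the compartment, ran the other way. Its signals were 2838, 2379 and 2751 in induced cells, 2075, 1860.0 and 2408 in islets and 961, 1019.9 and 1018 in non-islet cells. Induced and islet arrays overlapped by 1 array on each side, and the difference of 0.33 ± 0.11 had an adjusted p of 0.0306 that did not hold without induced repeat 1 or 3 or islet repeat 1 or 2, nor without the background filter (adjusted p 0.0683 to 0.137). Both were clearly above non-islet cells, by 1.40 ± 0.11 for induced cells (adjusted p = 5.36e-07) and 1.06 ± 0.11 for islets (adjusted p = 5.49e-06). Hspa5 and Hsp90b1, which both carry the ER stress element shown above, thus differed from islets in opposite directions.

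Dnajc3 (p58IPK), a co-chaperone of Hspa5, had signals of 3.52, 3.44 and 2.58 in induced cells, 1.89, 1.84 and 3.29 in islets and 21.0, 20.8 and 31.7 in non-islet cells. It was above background on 2 of 3 induced and 1 of 3 islet arrays, and on all 3 non-islet arrays. Dnajc3 thus met the condition for a test only through non-islet cells, the group where it was highest. The differences from non-islet cells were -1.25 ± 0.12 for induced cells (limma adjusted p = 1.9e-06) and -1.34 ± 0.12 for islets (limma adjusted p = 1.2e-06). These p-values do not allow for that selection. Canx, the membrane-bound lectin chaperone of glycoproteins, was likewise brightest in non-islet cells, with 3.82 ± 0.913 in induced cells, 4.60 ± 2.32 in islets and 29.0 ± 2.38 in non-islet cells. Manf, a secreted factor released under ER stress, averaged 4.08 ± 2.02 in induced cells, 9.30 ± 1.69 in islets and 15.4 ± 5.87 in non-islet cells. Its differences from islets (-0.41, adjusted p = 0.0418) and from non-islet cells (-0.76, adjusted p = 0.000738) were called, but its level was above background on only 2 of 3 induced arrays, and the call against islets was lost with an offset of 50, with arrays scaled to a common median, without the filter, and without induced repeat 2 or 3 or islet repeat 2 or 3 (adjusted p 0.0596 to 0.164).

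All 6 tested disulfide genes were lower in induced cells than in islets, with log2 differences between -1.59 and -0.75. Creld2, an ER stress-inducible protein with disulfide isomerase activity, had signals of 249, 241 and 288 in induced cells, 831, 814 and 769.8 in islets and 891, 861 and 895 in non-islet cells. Every induced array lay far below every other array. The differences were -1.59 ± 0.09 from islets (limma adjusted p = 9.67e-08) and -1.72 ± 0.09 from non-islet cells (adjusted p = 1.9e-08). Ero1b, the oxidase of the endocrine pancreas that recharges the isomerases and aids proinsulin folding, had signals of 1126, 1111 and 1122 in induced cells, 2997, 3086 and 3357 in islets and 1594, 1473 and 1625 in non-islet cells. Islets stood highest and the induced cells lowest, with no overlap. The induced cells fell by 1.48 against islets (adjusted p = 1.03e-07) and by 0.48 against non-islet cells (adjusted p = 0.000386), and islets were 1.00 ± 0.09 above non-islet cells (adjusted p = 1.02e-06). That last difference was -0.12 when arrays were scaled to a common median.

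Pdia3 (ERp57), the isomerase that works with calnexin on glycoproteins, had signals of 826, 804 and 851 in induced cells, 1174, 1664 and 1391 in islets and 332, 323 and 319 in non-islet cells. The induced cells lay between the other groups, below islets (-0.75 ± 0.12, adjusted p = 0.000292) and 1.32 ± 0.12 above non-islet cells (adjusted p = 1.24e-06). Islets exceeded non-islet cells by 2.06 ± 0.12 (adjusted p = 3.46e-08), the largest such difference of the set. The isomerases Pdia4 and Pdia6 averaged 244 ± 26.9 and 109 ± 3.54 in induced cells, 442 ± 28.0 and 201 ± 15.3 in islets, and 287 ± 23.5 and 107 ± 10.4 in non-islet cells. Both were lower in induced cells than in islets (-0.83 and -0.81, adjusted p = 6.38e-05 and 3.74e-05) and neither differed from non-islet cells at the threshold under quantile normalization (-0.23 and 0.03, adjusted p = 0.0737 and 0.763), whereas the deposited values put both higher (0.69 and 0.94). P4hb (PDI), the most abundant isomerase in most cells, averaged 1817 ± 191 in induced cells, 3212 ± 128 in islets and 3201 ± 276 in non-islet cells. It was lower in induced cells against either group (-0.82 and -0.81, adjusted p = 6.08e-05 and 2.66e-05).

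Both tested channel subunits were lower in induced cells than in either other group. Sec61b, the small beta subunit, had signals of 390.2, 368 and 446 in induced cells, 835, 804 and 806 in islets and 954, 915 and 822 in non-islet cells. The induced arrays were clearly apart from the others, which overlapped each other. It fell by 1.00 against islets and by 1.14 against non-islet cells on the log2 scale (SE 0.10 each, limma adjusted p = 7.54e-06 and 1e-06), and a second, dimmer probe gave -1.16 and -1.66. Islets and non-islet cells were not told apart by the brighter probe (-0.13, adjusted p = 0.241), while the dimmer one was called lower in islets (-0.50, adjusted p = 0.000641). Sec61a1, which forms the pore, had signals of 107, 124 and 101 in induced cells, 156, 141 and 134 in islets and 301, 287 and 297 in non-islet cells. Non-islet arrays were highest on this scale, and no groups overlapped. The difference from islets was -0.35 ± 0.10 (adjusted p = 0.0128), a call lost without induced repeat 1 or 3 or islet repeat 1 (adjusted p 0.0517 to 0.0588), and that from non-islet cells -1.33 ± 0.10 (adjusted p = 2.65e-07). With the deposited values the difference of induced from non-islet cells was -0.32 (adjusted p = 0.00159), and that of islets from non-islet cells, -0.98 under quantile normalization (adjusted p = 3.46e-06), was -0.04 and not called (adjusted p = 0.675).

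Of 7 tested degradation genes, induced cells had 2 higher and 4 lower than islets, where 22.5% of all tested probes were called higher and 26.2% lower. Set against non-islet cells, induced cells had 0 higher and 6 lower (all probes: 39.6% and 36.5%) and islets 1 higher and 6 lower (all probes: 40.5% and 34.1%). The deposited values gave 2 higher and 5 lower for induced cells (all probes: 56.9% and 22.5%) and 1 higher and 5 lower for islets (all probes: 62.5% and 18.5%). Edem1, which marks misfolded glycoproteins for removal, had signals of 31.3, 34.3 and 25.8 in induced cells, 31.7, 36.8 and 34.5 in islets and 315, 313 and 352 in non-islet cells. Induced and islet arrays overlapped (-0.13 ± 0.10, limma adjusted p = 0.335), and both lay far below non-islet arrays, by -3.00 ± 0.10 for induced cells (adjusted p = 5.17e-10) and -2.87 ± 0.10 for islets (adjusted p = 7.08e-10). Derl3, a derlin that is raised by the response and is typical of secretory cells, had signals of 4.14, 5.47 and 3.24 in induced cells, 21.3, 18.8 and 20.0 in islets and 134, 133 and 115 in non-islet cells. Its 3 groups did not overlap. The differences were -0.98 ± 0.10 from islets (adjusted p = 6.75e-06) and -3.10 ± 0.10 from non-islet cells (adjusted p = 2.26e-10), and with the deposited values -0.64 and -1.43.

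Sel1l, the scaffold of the Hrd1 ubiquitin ligase, and Herpud1, a stress-inducible partner of it, were the degradation genes that were higher in induced cells than in islets. Sel1l had signals of 643, 657 and 598 in induced cells, 346, 345 and 361 in islets and 2262, 2159.8 and 2718 in non-islet cells. Herpud1 had 636, 642 and 589 in induced cells, 372, 402 and 361 in islets and 861, 858 and 851 in non-islet cells. For both the induced arrays lay between the other groups with no overlap. Against islets the differences were 0.83 ± 0.10 for Sel1l (adjusted p = 4.4e-05) and 0.70 ± 0.09 for Herpud1 (adjusted p = 3.86e-05). Against non-islet cells they were -1.89 and -0.45, and the Herpud1 value was 0.15 with the deposited values (adjusted p = 0.0272). Syvn1, the Hrd1 ligase itself, did not follow its scaffold. It averaged 539 ± 51.3 in induced cells, 806 ± 90.1 in islets and 1078 ± 104 in non-islet cells, and was lower in induced cells against islets (-0.57, adjusted p = 0.00194) and against non-islet cells (-0.98, adjusted p = 1.37e-05). Edem2, which trims a mannose early in disposal, averaged 994 ± 92.7 in induced cells, 1944 ± 316 in islets and 3003 ± 311 in non-islet cells, and its 3 probes gave the same direction in every comparison. Derl2, a further derlin, averaged 147 ± 0.606 in induced cells, against 229 ± 14.3 in islets (-0.60, adjusted p = 0.000919), and 170.4 ± 25.7 in non-islet cells; the dimmest of its 3 probes was not called against islets (-0.22, adjusted p = 0.512).

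Of 8 tested stress-response factors, 3 were higher (37.5%), 2 lower (25%) and 3 not called in induced cells against islets, with a median difference of 0.11. Of all tested probes 22.5% were called higher and 26.2% lower, with a median of -0.04. Xbp1, the transcription factor that Ern1 activates by splicing its RNA, had signals of 2250.5, 2447 and 1997 in induced cells, 2133, 2576 and 2537 in islets and 3357, 3086 and 3641 in non-islet cells. Atf4, the transcription factor translated when PERK or its relatives slow translation, had 642, 712 and 672 in induced cells, 610.2, 731 and 674 in islets and 703, 674 and 844 in non-islet cells. Neither was called between induced cells and islets, with differences of -0.11 ± 0.11 for Xbp1 (limma adjusted p = 0.46) and 0.01 ± 0.11 for Atf4 (adjusted p = 0.95), and their arrays overlapped. Xbp1 was lower than in non-islet cells in both the induced cells (-0.59, adjusted p = 0.000618) and islets (-0.48, adjusted p = 0.00278). Atf4 did not differ from non-islet cells at the threshold under quantile normalization (adjusted p = 0.32 for induced cells and 0.285 for islets). The other scalings called it in opposite directions. The deposited values put it higher in both (0.52 and 0.42). Arrays scaled to a common median put it lower in both (-0.41 and -0.61, limma adjusted p = 0.000487 and 2.65e-05). A dimmer second probe was called lower in islets than in non-islet cells (-0.48, adjusted p = 0.0151). These probes measure the amount of RNA, and neither the splicing of Xbp1 nor the translation of Atf4 was measured.

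Ppp1r15a (Gadd34), which brings a phosphatase to eIF2alpha and so restores translation, had signals of 391, 369 and 377 in induced cells, 78.3, 83.9 and 77.3 in islets and 21.4, 9.06 and 12.5 in non-islet cells. The induced arrays were highest by far, and the groups did not overlap. The induced cells were 2.09 ± 0.14 above islets (limma adjusted p = 3.75e-07) and 3.92 ± 0.14 above non-islet cells (adjusted p = 8.94e-10), where 2 of 3 arrays were above background. Ddit3 (Chop), a transcription factor of prolonged stress, followed the same order, with signals of 113, 108 and 130.3 in induced cells, 50.9, 40.4 and 41.8 in islets and 5.90, 9.38 and 11.8 in non-islet cells. It was 1.20 ± 0.13 above islets (adjusted p = 1.27e-05) and 2.62 ± 0.13 above non-islet cells (adjusted p = 7.61e-09), where 1 of 3 arrays was above background. Islets in turn exceeded non-islet cells by 1.83 for Ppp1r15a and 1.43 for Ddit3 (adjusted p = 4.47e-07 and 1.19e-06).

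Other genes downstream of Atf4 went the other way. Chac1, which degrades glutathione and carries the amino acid response element shown above, had signals of 254, 253 and 269 in induced cells, 582, 698 and 668 in islets and 1095, 983 and 1117 in non-islet cells. Trib3, a pseudokinase that binds Akt and Atf4, had 21.0, 25.5 and 22.2 in induced cells, 65.1, 67.0 and 67.5 in islets and 41.7, 43.5 and 38.7 in non-islet cells. For both, the induced arrays were the lowest of all 9. Against islets Chac1 fell by 1.29 (limma adjusted p = 9.22e-07) and Trib3 by 1.17 (adjusted p = 7.74e-07). Against non-islet cells the differences were -1.99 for Chac1 (adjusted p = 9.48e-09) and -0.61 for Trib3 (adjusted p = 6e-05), the second of which was 0.07 and not called with the deposited values. A further Trib3 probe was not called against non-islet cells either (-0.30, adjusted p = 0.0832). The sensors themselves were dim. Ern1 averaged 10.1 ± 0.530 in induced cells, 4.17 ± 1.34 in islets and 9.27 ± 3.08 in non-islet cells, with a difference of 0.45 from islets (adjusted p = 0.00657) that was not called when arrays were scaled to a common median (adjusted p = 0.063). Atf6 averaged 9.22 ± 2.48 in induced cells, 6.29 ± 0.239 in islets and 26.4 ± 8.58 in non-islet cells, and was lower than in non-islet cells both for induced cells (-0.84, adjusted p = 0.000386) and for islets (-1.04, adjusted p = 7.35e-05).

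**Figure D3:**
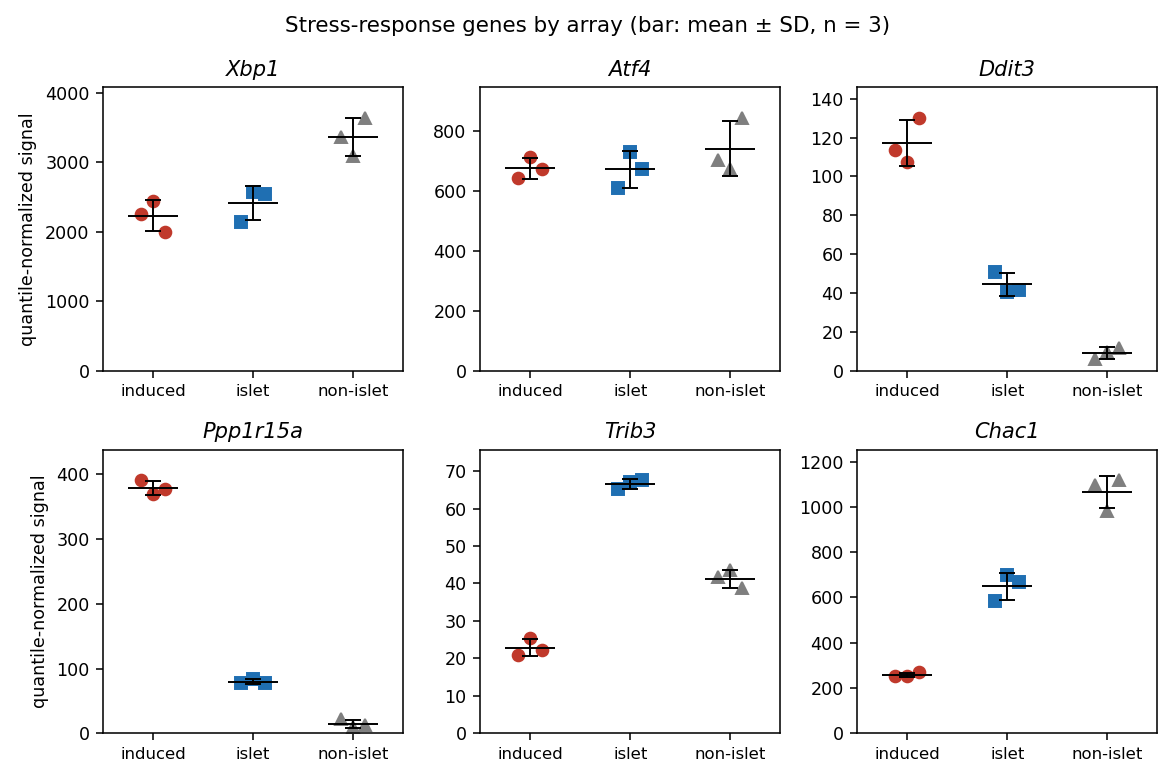
Quantile-normalized signal of 6 stress-response genes on each array, with a bar for the group mean ± SD (n = 3); each panel has its own axis from 0. Induced cells were highest for Ddit3 and Ppp1r15a (means 117 and 379) and lowest for Trib3 and Chac1 (means 22.9 and 258), and overlapped islets for Xbp1 and Atf4.

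The summed signal of immediate early genes, which dissociation and sorting of tissue can raise, had the same order of groups as Ddit3 and Ppp1r15a. Over 11 such genes, Fos, Jun and Egr1 among them, it was 13782 to 14452 in induced cells, 6683 to 7579 in islets and 1326 to 1479 in non-islet cells. Against islets the induced cells had 9 of the 11 higher and 0 lower, with a median difference of 1.32. Fos (0.03, limma adjusted p = 0.876) and Ier2 (-0.06, limma adjusted p = 0.83) were not called there. Against non-islet cells 10 were higher and 1 lower, with a median of 3.13. In islets against non-islet cells 7 were higher and 2 lower, with a median of 1.83. The labels name sorting for the induced cells alone. Genes of the acinar transcription programme, 5 in all, summed to 579 to 635 in induced cells, 418 to 451 in islets and 4313 to 4923 in non-islet cells, the group in which Edem1, Sel1l and Derl3 were highest. Induced cells had 4 of the 5 higher than islets. Bhlha15 was lower, at 109 ± 2.14 against 342 ± 14.2 in islets (-1.55, limma adjusted p = 4.13e-08). All 5 were lower in induced cells than in non-islet cells. The part of either list in these results was not tested. The 4 measured markers of B and plasma cells, a further secretory type, summed to below 0 in induced and non-islet cells and to 5.77 to 12.2 in islets.

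In induced cells most tested genes with the ER stress element were called lower, as were most of those searched without a match. Among the carriers only Hsp90b1 was called higher. Its call against islets was lost in some settings, as described above. Of 9 tested carriers, 1 was higher, 6 were lower and 2 were not called in induced cells against islets, and of 17 tested genes searched without a match 5 were higher, 9 lower and 3 not called. Of all tested probes 22.5% were called higher and 26.2% lower. Against non-islet cells, 1 carrier was higher, 7 were lower and 1 was not called, and of those without a match 3 were higher, 10 lower and 4 not called (all probes: 39.6% and 36.5%). In islets against non-islet cells the carriers split into 3 higher, 4 lower and 2 not called, and those without a match into 6 higher, 8 lower and 3 not called (all probes: 40.5% and 34.1%). The 4 tested genes with no window (Hyou1, Manf, Sec61a1 and Atf6) are in neither count, and carriers were not tested against the rest.

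Further genes of the pathway, in 6 lists, were read in the same way, and more of them were lower than higher in induced cells against islets in 4 of the lists. Of all tested probes 22.5% were called higher and 26.2% lower. Of 14 other folding and disulfide genes, 4 were higher and 7 lower. Txndc5, a disulfide isomerase of secretory cells, averaged 103 ± 12.2 in induced cells, against 353 ± 28.5 in islets (-1.66, limma adjusted p = 1.85e-07), and Fkbp11, a prolyl isomerase, had a difference of -0.89. Prdx4, the peroxiredoxin of the compartment, averaged 1159 ± 28.9 in induced cells, against 503 ± 10.4 in islets (1.19, adjusted p = 3.62e-07), and Sil1, a nucleotide exchange factor of Hspa5, had a difference of 0.98. Of 9 genes that add or trim N-glycans, 0 were higher and 7 lower (2 more were not called), led by Dad1 (-0.87) and Stt3a (-0.86), both parts of oligosaccharyltransferase. Of 11 other translocation and signal peptidase genes, 0 were higher and 6 lower, led by Sec63 (-1.09) and Sec61g (-1.02). Of 10 other degradation genes, 0 were higher and 3 lower, with Herpud2 (-0.71) and Selenos (-0.62) furthest down, a share near the 26.2% of all tested probes that were called lower, and their median was -0.09, against -0.04 over all probes.

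Regulators were called in both directions. Of 10 other sensors and regulators, the induced cells had 3 higher and 2 lower than islets (30% and 20%). These shares were near those of all tested probes, 22.5% higher and 26.2% lower. Ppp1r15b, the constitutive relative of Ppp1r15a, averaged 78.7 ± 1.84 in induced cells, against 12.5 ± 1.53 in islets (1.89, limma adjusted p = 9.79e-08), and Eif2ak2, the RNA-activated kinase of eIF2alpha, had a difference of 0.36. Wfs1, an ER membrane protein that beta cells need to withstand stress, averaged 47.2 ± 7.77 in induced cells, against 182 ± 28.2 in islets (-1.71, adjusted p = 4.2e-05). Of 8 other targets of Atf4, 4 were higher and 2 lower. Atf3, which is both an Atf4 target and an immediate early gene, averaged 636 ± 24.9 in induced cells, against 18.8 ± 0.634 in islets (4.40, adjusted p = 1.94e-09). It was above background on no non-islet array. On the scale of signal + 12, the induced cells were at least 30.7-fold above the dimmest probes that exceeded background there. Nupr1, a stress-induced chromatin protein prominent in acinar cells, was also higher than in islets (0.74), while Vldlr (-1.22) and Asns (-1.04), the asparagine synthetase, were lower. Asns averaged 334 ± 21.1 in induced cells, 702 ± 95.8 in islets and 2050.0 ± 333 in non-islet cells, the same order as Chac1.

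Against non-islet cells these lists were mixed, where 39.6% of all probes were called higher and 36.5% lower in induced cells. For induced cells, 4 of 14 other folding genes were higher and 8 lower, and Ppib, a prolyl isomerase, showed the largest fall of its list at -2.50 (limma adjusted p = 4.76e-09). The other degradation genes had 2 of 10 higher and 6 lower, led by Aup1 at -1.62, and the other translocation genes 3 of 11 higher and 6 lower, led by Sec63 at -1.69. Sensors and regulators had 6 of 10 higher and 1 lower. For islets, Prdx4 (-2.86) and Ppib (-2.79) were the largest falls among folding genes, and Wfs1 (1.88) and Prkcsh (1.63), the beta subunit of glucosidase II, the largest rises of their lists. The deposited values moved these counts upward: of 9 N-glycan genes, induced cells had 2 higher and 3 lower than non-islet cells under quantile normalization, but 7 higher and 0 lower as deposited, where the share of all probes called higher was 56.9% instead of 39.6%.

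**Figure D4:**
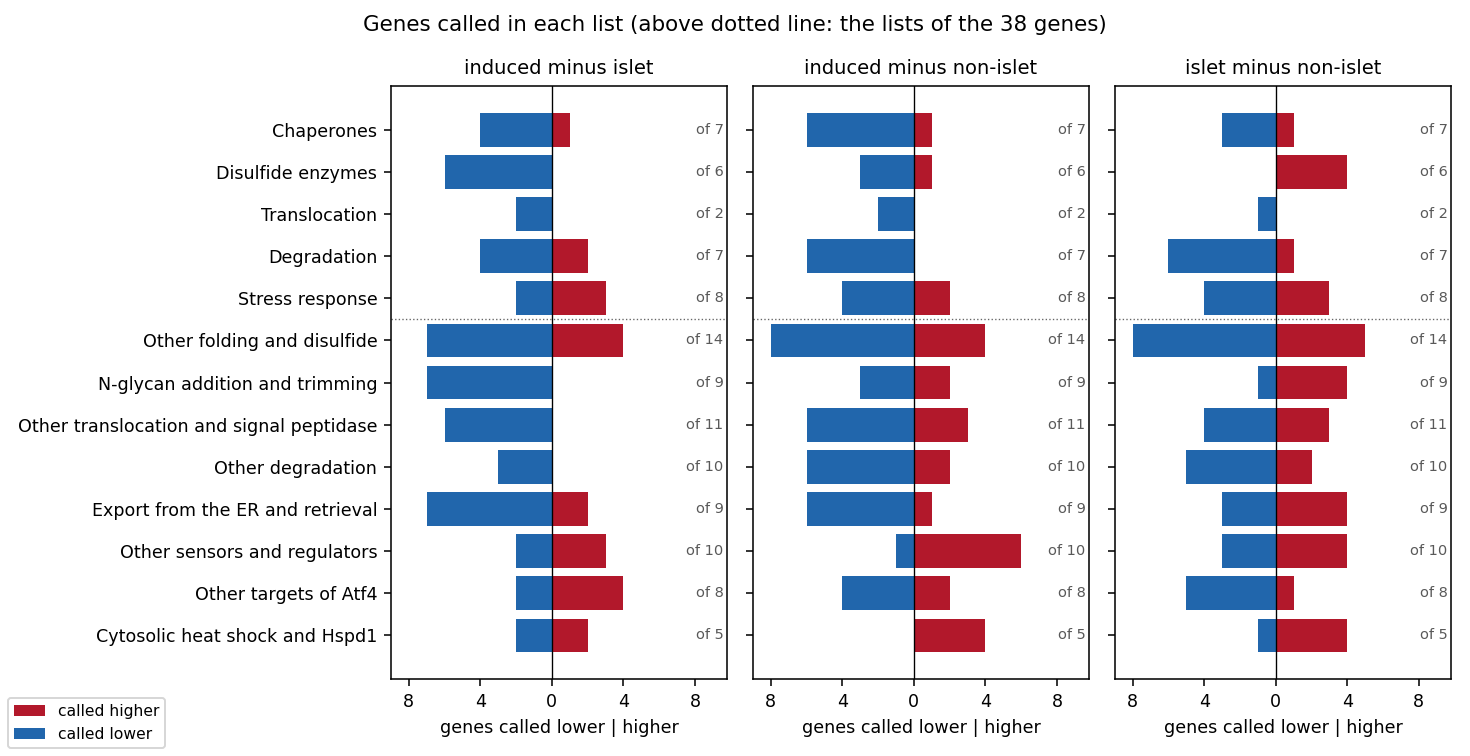
Number of genes called lower (bars to the left) and higher (bars to the right) in each list and comparison, at limma's adjusted p under 0.05 under quantile normalization, with the number tested at the right edge. In induced cells against islets, all 6 disulfide genes and 7 of 9 N-glycan genes were lower; against non-islet cells, 6 of 7 degradation genes were lower.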

How the data were processed

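RNA of 9 samples in 3 groups of 3 had been extracted with Trizol, amplified and labelled with biotin, per the labels' protocols. The authors had used BeadStudio to make the deposited intensity values, per the submitters' processing notes, with version and settings not given in the sources used here. A further deposited table of 36 columns, named by slide position, was not used here. The design assumed detection p-values, which that table holds. Instead, noise on each array was taken from values below 0 mirrored at 0, and a probe was above background beyond 1.645 noise SD.

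After quantile normalization of 24613 probes, 12 was added, the smallest offset to 1 decimal with no value left under 1, before log2. The 13927 probes that exceeded background on every array of 1 group or more were fitted with limma 3.58.1 in R 4.3.3 (1 mean per group, 9 arrays, 6 residual degrees of freedom, two-sided), with Benjamini-Hochberg adjustment over them and a threshold of 0.05. The fit was tested on simulated data. Deposited values were also fitted unscaled, as log2(value + 33.3). The number of arrays limits the precision.

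The genes, lists and tests were chosen with earlier results of these data known. Values on every array are given for the called genes with the largest difference per role and comparison among tested genes, and for Hspa5, Hsp90b1, Xbp1, Atf4, Ddit3 and Ero1b; per-array values of Sel1l, Herpud1, Chac1 and Trib3 were added after their values were seen. At most 2 called rises and 2 falls are named of each further list and comparison. Alternatives were other offsets, scalings, filters, probes, array weights, the compared pair alone, a replicate block and leaving out each array.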

Additional observations from a re-analysis of the deposited data

How the results depend on the processing

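All 30 calls in induced cells against islets were the same with the deposited values, and the comparisons with non-islet cells moved most. With the deposited values, 9 genes were called higher in induced cells than in non-islet cells and 14 in islets than in non-islet cells. The same setting turned the difference of induced from non-islet cells for Hspa5 (0.28), Pdia4 (0.69), Herpud1 (0.15), Derl2 (0.78), Atf4 (0.52) and Trib3 (0.0716), and that of islets from non-islet cells for Sdf2l1 (0.10), P4hb (-0.33), Creld2 (0.33), Sec61b (0.35), Syvn1 (0.0145) and Atf4 (0.42). With arrays scaled to a common median, P4hb (-1.40) and Ero1b (-0.12) turned in islets against non-islet cells. That scaling moved the counts the other way, to 8 higher and 19 lower in islets against non-islet cells. For induced cells against non-islet cells it gave 5 higher and 22 lower. Shares over all probes were not computed for it. Its median for islets against non-islet cells was -0.53, against 0.01 over all probes. The cause was not tested. With the 24 genes above background on all 9 arrays, 3 were higher in induced cells than in islets and 2 than in non-islet cells, as fewer genes were tested. Leaving out each array gave 5 to 6 higher and 16 to 18 lower for induced cells against islets, 4 and 21 to 22 against non-islet cells, and 9 and 14 to 15 for islets against non-islet cells. Same-numbered samples did not deviate together (r -0.116 to 0.190 in 9 pairs, against -0.216 to 0.208 in 18 others). A replicate block gave 6 and 18, 4 and 21, and 9 and 15 calls in the same order, adding only Manf in islets against non-islet cells (-0.35, limma adjusted p = 0.0444). Signal near background limits Canx, Dnajc3, Manf, Ern1, Ddit3 and Ppp1r15a, which were not above it on every array.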

Other observations

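Genes of export from the endoplasmic reticulum, the step after folding, were mostly lower in induced cells than in islets. Of 9 tested, 2 were higher and 7 lower under both scalings. Of all tested probes 22.5% were called higher and 26.2% lower, and as deposited 22.5% and 33.9%. Lman1, the lectin receptor that carries glycoproteins to the Golgi, averaged 237 ± 6.74 in induced cells, against 1097 ± 136 in islets (log2 difference -2.15, limma adjusted p = 5.71e-08), and Sec13, a coat protein of the export vesicles, had a difference of -1.16. Sec24d, a cargo-binding coat subunit, went the other way, with 102 ± 9.82 in induced cells, against 8.66 ± 1.52 in islets (2.46, adjusted p = 3.31e-07). Against non-islet cells, 1 export gene was higher in induced cells and 6 were lower, with Lman1 at -1.97 and Sec24d at 1.77. In islets against non-islet cells 4 were higher and 3 lower, with Surf4, a cargo receptor, at 1.00 and Kdelr3, a retrieval receptor, at -1.63. The shares of probes called higher and lower against non-islet cells were 39.6% and 36.5% for induced cells and 40.5% and 34.1% for islets.

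Heat shock genes, which answer unfolded protein outside the compartment, were read for comparison, and 5 were tested, the cytosolic Hspb1, Dnajb1, Hsph1 and Hsp90aa1 and the mitochondrial Hspd1. In induced cells against islets 2 were higher and 2 lower, where 22.5% of all tested probes were called higher and 26.2% lower. Hspb1, a small heat shock protein, had a difference of 2.99 and Dnajb1, a co-chaperone of Hsp70, 0.94, while Hsph1 fell by 1.00 and Hspd1, the mitochondrial chaperonin, by 0.64. Against non-islet cells 4 were higher and 0 lower in induced cells, led by Dnajb1 at 3.21 (limma adjusted p = 8.57e-11) and Hspb1 at 2.10 (adjusted p = 5.41e-09). Of all probes 39.6% were called higher and 36.5% lower there. Most of the immediate early genes described above moved the same way as Dnajb1 in these comparisons, and their part in it was not tested.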
